A study of Mus musculus with 4 samples.

Results

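Imprinted growth genes were followed in mouse liver: the ligand Igf2, its clearance receptor Igf2r, the adaptor Grb10, the cell cycle inhibitor Cdkn1c, the zinc finger proteins Plagl1 and Peg3, the membrane protein Dlk1, the hydrolase-fold protein Mest, and the long noncoding RNAs H19 and Meg3. They were found by gene name, and 10 of the 36161 gene names on the array belong to them. An imprinted gene is transcribed mainly from the chromosome of a single parent, and which one is set by methylation marks laid down in the germ line and protected after fertilization. Many imprinted genes act on fetal growth, those expressed from the paternal copy often promoting it and those from the maternal copy often restraining it. Several of them are abundant in fetal liver and decline after birth.

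The 4 samples were whole livers labelled C57BL/6J and embryonic day 20, and they fell into 4 groups with a single array apiece, from microsomic (MF) and control (CF) females and from microsomic (MM) and control (CM) males. The methods describe microsomic (M) animals as those below the 10th percentile of weight at birth for their sex and control (C) animals as littermates near the colony mean, and they give newborn C57BL/6 N mice and several replicate experiments, which the labels do not. No group carried an engineered allele or a treatment. The number of animals behind each array was not given in the sources used here. The M arrays occupied a column of the slide and the C arrays another, with the females in a row and the males in another, so that position and condition cannot be told apart. RNA was labelled with Cy3 and read in 1 colour, and each level below is log2 of the Feature Extraction signal relative to the 75th percentile on the same array. Probes differ in how brightly they hybridize, so levels are compared between arrays for the same probe and never between genes.

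With 1 array per group no difference carries a replicate error or a p-value. As a guide to technical noise, single spots of the 117 probes that are printed 10 times differed between MF and CF with an SD of 0.34 on the log2 scale, and between MM and CM with an SD of 0.39, which covers variation between spots of an array and not between animals. The 10 genes were carried by 25 probes in 43 spots, of which 2 spots (both of Mest) were left out for an outlier flag. All 25 probes were well above background on all 4 arrays.

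The female arrays stood apart from the others in genes of neighbouring organs. Of 8 heart genes, 7 were more than 1.5-fold lower in MF than in CF, and their summed signal, in multiples of the 75th percentile of the array, was 125.4 on CF against 2.44 to 5.44 on the other arrays. Myh6, the atrial and adult heavy chain of heart myosin, was at 4.76 on CF and not well above background on MF and MM. Of 8 intestinal genes, 7 were higher in MF than in CF, with a summed signal of 78.7 on MF and 8.33 on CF beside 38.1 on MM and 11.3 on CM, and Cdx2, which specifies intestinal epithelium, was well above background on MF alone. The hepatocyte list was well above background in full (12 of 12) on each array. By summed signal MM and CM lay between the extremes in both lists, and each result is given for the males separately. The intestinal sum of MM came mostly from Fabp2, at 4.98 on MM and 2.59 on CM. Of 7 intestinal genes measured in males, Fabp2 was the 1 higher in MM than in CM, and 3 were lower (Vil1, Lct and Sis).

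Of the 5 imprinted growth genes past 1.5-fold in a sex, 4 (Igf2, Dlk1, Meg3, Cdkn1c) had opposite signs in females and males, beside 52.5% of the 14838 genes so selected, and Peg3 was lower in both microsomic livers. Without scaling 3 of 8 such members had opposite signs, Dlk1 being positive in both sexes, beside 37.7% of all genes so selected. In females, Igf2, Dlk1 and Cdkn1c exceeded CF by more than 1.5-fold in MF and Peg3 was lower, 4 of 10 genes against 40.9% of all genes tested. In males, Igf2, Meg3, Peg3 and Cdkn1c were lower in MM than in CM and none was higher, again 4 of 10 against 40.8% of all genes. The counts therefore lay at the background of these arrays, and the direction split was 3 higher to 1 lower in females (19.9% and 21.1% of all genes) and 0 to 4 in males (17.7% and 23.1%). The female split was 2 higher to 2 lower with quantile normalization, 6 to 0 without scaling and 5 to 1 with the mean over probes. The male split was 2 to 3 with the arrays centred on their medians, 2 to 4 with normexp and quantile normalization together, and 2 to 2 without scaling. The median difference of the 10 genes was 0.40 in females and -0.42 in males, beside -0.08 and -0.03 for all 19303 genes above background on every array. In bulk liver, fewer cells of a type and less RNA per cell cannot be told apart.

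**Figure D1:**
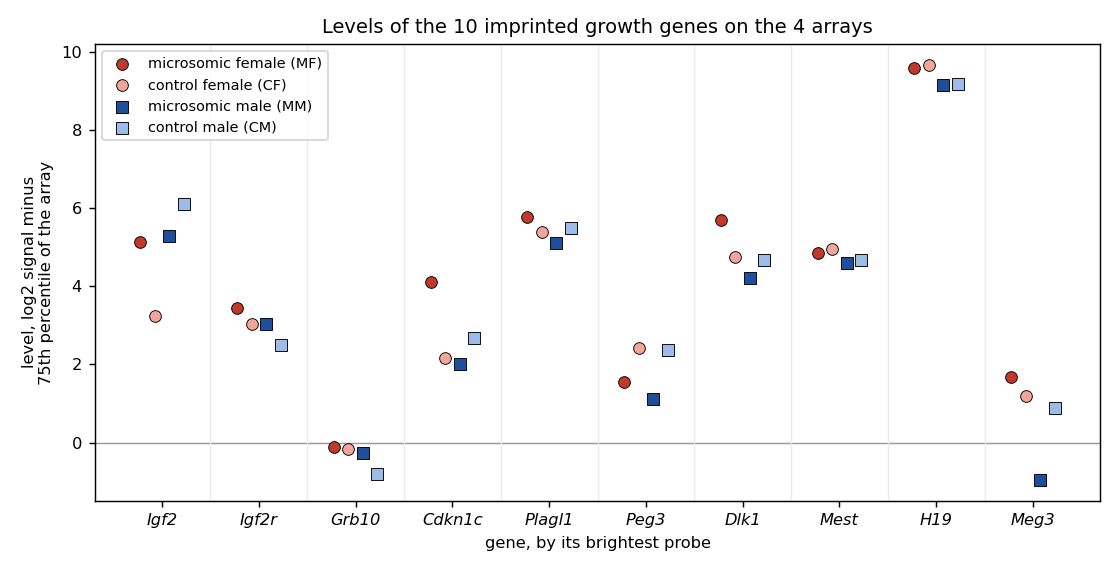
Level of each of the 10 genes (brightest probe, log2 signal minus the 75th percentile of the array) on the microsomic female (MF), control female (CF), microsomic male (MM) and control male (CM) arrays, 1 point per array and no error bars because each group has 1 array. Igf2 is low on CF alone (3.24), Cdkn1c is high on MF alone (4.11), Meg3 is low on MM alone (-0.96), and Peg3 is lower on both microsomic arrays than on both control arrays. Heights of different genes are not comparable.

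Igf2, the growth factor that drives fetal growth through the IGF1 and insulin receptors and is expressed from the paternal copy, had a single probe (chr7:149839661-149839720, mm9). Its level was 5.13 in MF, 3.24 in CF, 5.28 in MM and 6.11 in CM. The control female was the lowest of the arrays and the control male the highest, with both microsomic arrays between them and close to each other. The difference was 1.89 (3.71-fold higher) in females and -0.82 (1.77-fold lower) in males. Between the controls it was larger than either, 2.86 (7.27-fold higher in CM than in CF), and between the microsomic arrays it was 0.15. With normexp and quantile normalization the female difference was 1.19 (2.29-fold). Without scaling the male difference was -0.27, which is within 1.5-fold, and its direction held under every alternative run.

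Igf2r, the mannose 6-phosphate receptor that takes Igf2 up for breakdown and is expressed from the maternal copy in most mouse tissues, had the best measured values of the group, since its probe was printed in 10 spots. Its mean level was 3.44 ± 0.21 (SD, n = 10 spots) in MF, 3.05 ± 0.17 in CF, 3.05 ± 0.07 in MM and 2.50 ± 0.27 in CM. Both microsomic arrays lay above the control of their sex, and CF and MM did not differ beyond the spread of their spots. The difference was 0.40 ± 0.25 (SD, n = 10 spots) in females and 0.55 ± 0.28 in males, with all 10 spots above 0 in each sex, and it stayed under 1.5-fold in both. It passed that size in males with median centring (0.78) or normexp and quantile normalization (0.62), and in both sexes without scaling (0.80 and 1.11).

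**Figure D2:**
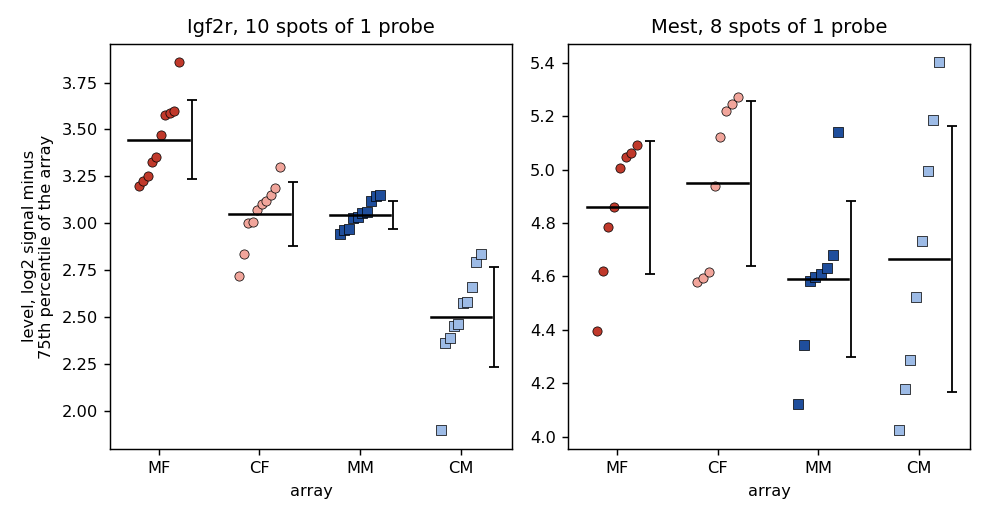
Level (log2 signal minus the 75th percentile of the array) of each unflagged spot of the repeated probes of Igf2r (10 spots) and Mest (8 spots) on the 4 arrays, with the mean as a line and the SD over spots as a bar. The spots are technical repeats within an array. Igf2r is higher on MF than on CF and higher on MM than on CM, whereas the Mest spots of each pair overlap.

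Grb10, an adaptor that binds the insulin and IGF1 receptors and restrains growth when expressed from the maternal copy, was at -0.12 in MF, -0.16 in CF, -0.28 in MM and -0.80 in CM. The control male was the lowest and the other arrays lay close together. The difference was 0.04 in females and 0.52 in males, both under 1.5-fold, and the male one passed it with median centring (0.76), normexp and quantile normalization (1.41) and no scaling (1.08). CM was lower than CF by more than 1.5-fold (-0.63). Between the control sexes Igf2 was higher in CM and Grb10 lower, 2 of 10 members beside 46.3% of all genes tested (26.6% higher and 19.7% lower).

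Cdkn1c, the maternally expressed inhibitor of cyclin-dependent kinases known as p57, had a single probe at chr7:150644753-150644812, 805.03 kb from that of Igf2. Its level was 4.11 in MF, 2.16 in CF, 2.002 in MM and 2.69 in CM. The microsomic female stood above the rest. The difference was 1.95 (3.86-fold higher) in females and -0.69 (1.61-fold lower) in males. The male difference fell within 1.5-fold with median centring (-0.45), without scaling (-0.13) and after removal of the trend over the array surface (-0.54), and was larger with normexp and quantile normalization (-1.69, 3.23-fold lower). MM was 4.30-fold lower than MF, and Cdkn1c, Dlk1, Meg3 and Plagl1 were the 4 of 10 members past 1.5-fold between the microsomic sexes, all lower in MM, beside 49.5% of all genes past it in either direction (28.9% higher and 20.5% lower).

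Igf2 and Cdkn1c were the 2 members that passed 1.5-fold upwards in females and downwards in males, beside 5.81% of all genes (9.85% in opposite directions of either kind). By sign alone 5 of 10 members (Igf2, Dlk1, Meg3, Plagl1, Cdkn1c) were higher in MF and lower in MM, beside 23% of all genes. This count was 3 without scaling and 4 with quantile normalization, beside 15.9% and 21.3% of all genes.

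Plagl1, a paternally expressed zinc finger transcription factor that restrains cell division and regulates other imprinted genes, was carried by 4 probes that disagreed. Its brightest probe was at 5.78 in MF, 5.39 in CF, 5.10 in MM and 5.50 in CM, a difference of 0.39 in females and -0.39 in males. The next brightest gave 1.01 in females and -0.43 in males. The probes ranged from -0.52 to 1.01 in females and from -1.15 to 1.10 in males, so no single direction held over the gene. The brightest probe gave -0.17 in females with quantile normalization and 0.17 in males without scaling, where the female difference was 0.80.

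Peg3, a large zinc finger protein expressed from the paternal copy and known for its part in growth and maternal behaviour, was the only member past 1.5-fold in the same direction in both sexes, beside 6.98% of all genes (3.80% lower in M). Its brightest probe (chr7:6658774-6658833, mm9) was at 1.56 in MF, 2.42 in CF, 1.12 in MM and 2.38 in CM. Both microsomic arrays lay below both control arrays, and the controls were nearly level. The difference was -0.87 (1.82-fold lower) in females and -1.26 (2.40-fold lower) in males. The second probe of Peg3 gave -0.75 and -1.05. In females the first probe fell within 1.5-fold without scaling (-0.47) and with normexp and quantile normalization (-0.46), and it stayed negative in both sexes under every alternative.

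Zim1, the neighbour of Peg3 in the same imprinted cluster and a zinc finger gene expressed from the maternal copy, was also lower in both sexes, at -3.36 in MF and -2.54 in CF, and at -3.77 in MM and -2.85 in CM. The difference was -0.83 in females and -0.93 in males by this probe, the brighter of 2. The other probe gave -0.24 in females, under 1.5-fold, and -1.53 in males. Usp29 and Zfp264 of that cluster were not well above background on any array.

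The limma fit over all 4 arrays, with sex as a term, left 1 residual degree of freedom. It called 0 of 19303 genes at a Benjamini-Hochberg adjusted p under 0.05, with 853 genes (4.42%) at an unadjusted p under 0.05. Peg3 was the only member among these, with M minus C of -1.07 (SE 0.42, adjusted p = 0.995 by limma). The looser rule of the methods (1.5-fold and an unadjusted p below 0.01) took in 163 genes (0.844%) and 0 members. The adjusted p of the other 9 members was 0.995 or higher by limma. For the mean over both sexes, opposite differences cancel, as for Igf2 (0.53, SE 0.65) and Cdkn1c (0.63, SE 0.63).

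Mest, a paternally expressed gene whose loss slows growth, gave the flattest profile. Its repeated probe was at 4.86 in MF, 4.95 in CF, 4.59 in MM and 4.67 in CM. The difference was -0.09 ± 0.34 (SD, n = 8 spots) in females and -0.08 ± 0.46 in males, with spots on both sides of 0. Its other probes gave -0.20 and -0.43 in females and 0.52 and 0.12 in males, none past 1.5-fold. With normexp and quantile normalization the repeated probe gave -0.60 in females.

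H19, a noncoding RNA expressed from the maternal copy and among the most abundant transcripts of fetal liver, lies downstream of Igf2, and their closest probes were 77.18 kb apart. It was carried by 7 probes within 0.984 kb. The probes are shown because neighbouring stretches of the same RNA gave different answers. They are written 5′ to 3′ from the 3′-most to the 5′-most, on the minus strand of chromosome 7 (mm9), with no base singled out.
H19 probe A_55_P1961127, chr7:149761492-149761551: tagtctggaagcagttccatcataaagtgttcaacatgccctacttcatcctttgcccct
H19 probe A_30_P01021588, chr7:149761693-149761752: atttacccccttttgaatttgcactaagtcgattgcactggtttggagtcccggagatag
H19 probe A_30_P01025068, chr7:149761756-149761815: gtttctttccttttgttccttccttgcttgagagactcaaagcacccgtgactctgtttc
H19 probe A_30_P01028007, chr7:149761957-149762016: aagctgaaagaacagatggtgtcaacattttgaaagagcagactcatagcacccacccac
H19 probe A_30_P01028827, chr7:149762113-149762172: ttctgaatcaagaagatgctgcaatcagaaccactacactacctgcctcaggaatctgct
H19 probe A_30_P01026972, chr7:149762173-149762232: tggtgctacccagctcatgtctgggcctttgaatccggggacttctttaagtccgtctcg
H19 probe A_55_P1961125, chr7:149762417-149762476: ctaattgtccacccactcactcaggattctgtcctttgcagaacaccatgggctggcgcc

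In females these 7 probes gave MF minus CF of -0.09, 0.44, 0.87, 1.54, -0.04, 1.70 and 0.80, in the order printed. In males they gave -0.00, -0.32, 0.16, 0.13, -0.01, 0.61 and 0.79. So 5 of 7 were above 0 in females, 4 of them past 1.5-fold, and 4 of 7 in males, 2 of them past it. The seventh probe, counted as past 1.5-fold in both sexes, was far dimmer than the rest. It was at -3.17 in MF, -3.97 in CF, -2.29 in MM and -3.09 in CM, whereas every other probe was at 7.55 or above on each array. The first 2 probes were saturated on MF and on no other array, so their MF values of 9.59 and 9.40 are lower limits. The fifth and sixth probes cover directly adjoining stretches, yet in females the fifth gave -0.04 and the sixth 1.70, with 45% and 55% of their bases G or C. The brightest probe, which stood for the gene, was level in males, at 9.17 in MM and 9.17 in CM. In females it was at 9.59 or more in MF and 9.68 in CF, so its difference of -0.09 is a lower limit, as is the -0.74 that quantile normalization gave, and its direction is unknown. The mean over the probes of H19, which includes the saturated ones and gives the dim seventh equal weight, gave 0.74. The brightest unsaturated probe, an alternative chosen after the data were seen, was at 9.28 in MF, 8.41 in CF, 8.28 in MM and 8.11 in CM, and with it H19 became the fifth member past 1.5-fold in females. Among the 5 unsaturated probes, H19 in females therefore ran from -0.04 to 1.70 (3.25-fold higher in MF).

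**Figure D3:**
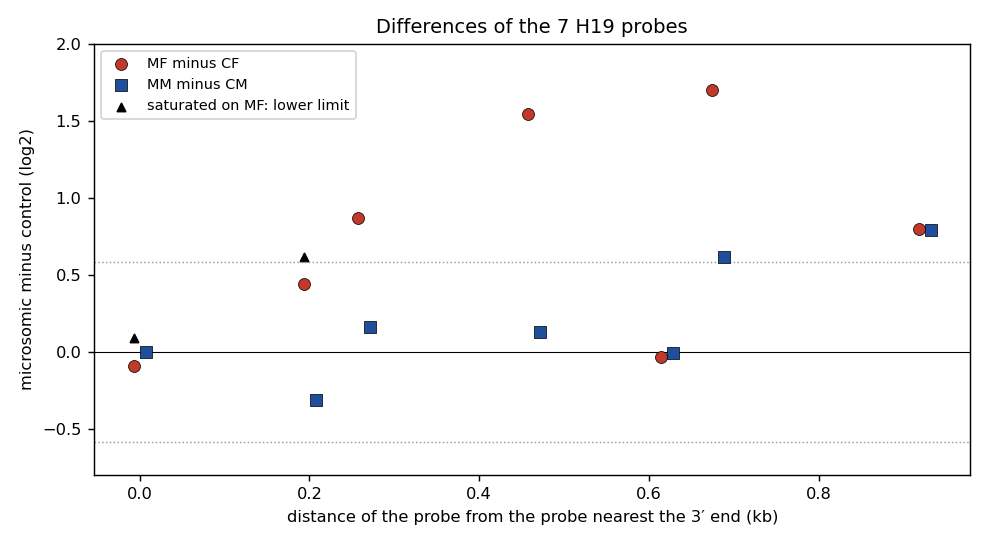
Difference between microsomic and control arrays (log2) of each of the 7 H19 probes in females (MF minus CF, circles) and males (MM minus CM, squares), against the distance in kb from the probe nearest the 3′ end; triangles mark the 2 probes saturated on MF, whose female difference is a lower limit. Dotted lines mark 1.5-fold. Female values run from -0.09 to 1.70 and male values from -0.32 to 0.79.

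Igf2as, transcribed on the opposite strand at the Igf2 locus, gave -0.64 in females and -0.23 in males. Ins2, the insulin gene next to Igf2 and imprinted in the yolk sac, gave 1.04 in females and -1.15 in males. Ins1, the unlinked insulin gene of the pancreas list, gave 0.58 (under 1.5-fold) and -1.95. Ctrb1, a pancreatic protease precursor of that list, gave 2.82 and -0.75, and both had the same signs as Ins2. Amy2a5 of the same list had the opposite signs by its brighter probe (-1.24 and 0.87). Of 8 measured genes of the list, 4 were higher and 1 lower in females, and 1 was higher and 5 lower in males. The part of pancreatic RNA in the Ins2 signal was not tested.

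Dlk1, a transmembrane protein of the Notch ligand type that marks hepatoblasts and is expressed from the paternal copy, was carried by 2 probes. The brighter one (chr12:110698721-110698781, mm9) was at 5.71 in MF, 4.74 in CF, 4.23 in MM and 4.68 in CM. For this probe MF was the highest and MM the lowest, and the controls were close together. The difference was 0.97 (1.95-fold higher) in females and -0.45 (under 1.5-fold) in males. The second probe gave 1.29 and -0.80, with CF the lowest (2.44, MM 2.54) and CM above CF by 0.91. With quantile normalization the female difference of the brighter probe was 0.49, and without scaling its male difference was 0.11.

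Meg3, the maternally expressed noncoding RNA downstream of Dlk1 in the same imprinted domain, is named by the study itself from these samples. Its 3 probes spread over 26.992 kb of the plus strand of chromosome 12 (mm9) and had the same direction within each sex while covering separate stretches of the locus. The sequences of 2 of them are shown for that reason, 5′ to 3′ with no base singled out.
Meg3 probe A_52_P196568, chr12:110799558-110799617: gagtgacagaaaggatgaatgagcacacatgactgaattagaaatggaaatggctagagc
Meg3 probe A_51_P455997, chr12:110809678-110809737: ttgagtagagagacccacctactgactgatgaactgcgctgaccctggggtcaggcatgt

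The second of these was the brightest of the 3, at 1.69 in MF, 1.20 in CF, -0.96 in MM and 0.89 in CM. The microsomic male stood below the other arrays. The difference was 0.49 (under 1.5-fold, though 0.59 with median centring and 0.89 without scaling) in females and -1.85 (3.60-fold lower) in males. The other probe shown gave 1.56 and -0.80 and the remaining one 0.87 and -1.58, so all 3 were above 0 in females and all 3 below 0 in males. The male difference of the brightest probe ran from -1.29 without scaling to -2.71 with normexp and quantile normalization.

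The region from Dlk1 through Meg3 to Mirg, a host of many microRNAs, spanned 289.1 kb. Of its 58 plus-strand probes, 24 were well above background on all 4 arrays. Their median difference was 0.65 in females, with 19 of 24 above 0, and -0.58 in males, with 7 of 24 above 0. Higher in MF and lower in MM were 14 of 24 (58.3%), beside 22.4% of the 25045 such probes on the whole array. Without the 5 probes of Dlk1 and Meg3 themselves the share was 9 of 19 (47.4%). Many of these probes tile a few transcripts and are not independent. Mirg went against the male direction by its brighter probe, at 0.40 in MF, -1.20 in CF, 0.53 in MM and -0.14 in CM. The difference of that probe was 1.60 in females and 0.68 in males. Its other probe gave 0.37 and 0.06, both under 1.5-fold. Dio3, which inactivates thyroid hormone at the far end of the domain, was at -3.93 in MF, -3.57 in CF, -4.57 in MM and -1.77 in CM. By its only probe it was 6.97-fold lower in MM than in CM. That probe was dim and stood higher on CM alone, and the lowest level well above background on MM was -5.65.

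**Figure D4:**
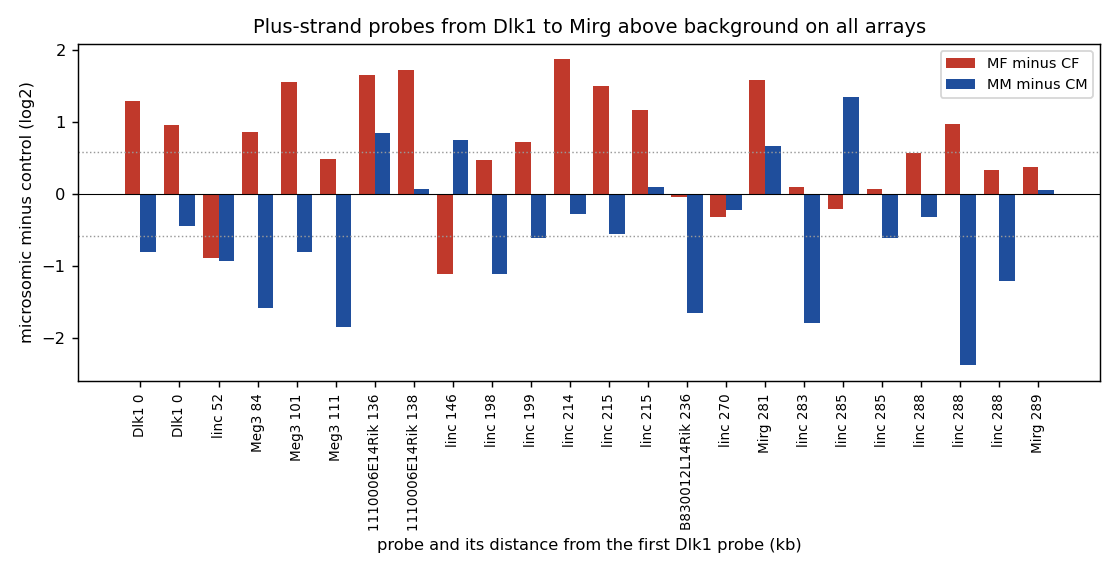
Difference between microsomic and control arrays (log2) in females (red) and males (blue) of the 24 plus-strand probes between Dlk1 and Mirg that were well above background on all arrays, ordered by distance (kb) from the first Dlk1 probe; linc marks probes of long intergenic noncoding RNAs and dotted lines 1.5-fold. Most red bars point up (19 of 24) and most blue bars down (17 of 24).

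Of the cell types the livers could hold, the stellate and mesenchymal list had 5 of 10 genes more than 1.5-fold lower in MM than in CM and none higher, with a median of -0.57 and a summed signal of 69.7 in MM and 108 in CM. In females it had 2 higher and 2 lower, with a median of -0.14 and sums of 101.1 in MF and 107.2 in CF. With the arrays scaled, that list was thus lower in MM together with Igf2, Meg3, Peg3 and Cdkn1c. It was nearly level in females, where Igf2, Dlk1 and Cdkn1c were higher. It was not alone in being lower in MM, since the hepatocyte and erythroid sums were lower there as well. The lists were not recounted without scaling, which moves every male difference up by the same amount, as for Igf2 from -0.82 to -0.27. How far these lists are lower in MM, if at all, therefore depends on the scaling. Without it Cdkn1c (-0.13) also fell within 1.5-fold in males, whereas Meg3 (-1.29) and Peg3 (-0.70) did not. The macrophage list was higher in MF than in CF for 6 of 7 genes (median 0.74, sums of 219 and 92.6), and in males for 2 of 7 (median 0.50, sums of 110 and 87.0). The hepatocyte list had 5 of 12 genes lower and 2 higher in MM than in CM (median -0.45, sums of 4163 and 5603). In females 2 of its genes were lower and 1 higher (median 0.15, sums of 6482 in MF and 6377 in CF). The erythroid list had 2 of 10 genes lower and 1 higher in MM (median -0.30, sums of 1485 and 2386 in CM). In females 4 of these were lower and 2 higher (median -0.56, sums of 2036 in MF and 2801 in CF). The pancreas list differed in opposite directions in the sexes, as Igf2, Dlk1, Meg3 and Cdkn1c did, with 4 of 8 measured genes higher and 1 lower in females (median 0.64) and 1 higher and 5 lower in males (median -0.73). Its summed signal, 13.4 in MF, 23.2 in CF, 44.4 in MM and 27.3 in CM, ran the other way in both sexes. By its brighter probe, the one in the sum, Amy2a5, an amylase, was lower in MF (-1.24) and higher in MM (0.87). The other probe of Amy2a5 gave 0.87 in females and 0.60 in males, so its probes disagreed in females. Pnlip was not well above background on any array. Of the adrenal list 4 of 5 measured genes were lower in MM than in CM (median -1.71), with Cyp11a1, Cyp11b1 and Star well above background on CM alone and sums of 0.423 in MF, 0.324 in CF, 0.469 in MM and 1.10 in CM. The part of these cell types, and of the heart and intestinal genes, in the differences of the imprinted genes was not tested.

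The other gene lists are to be read beside all genes tested, of which 19.9% were higher and 21.1% lower in females and 17.7% higher and 23.1% lower in males, with medians of -0.08 and -0.03 for those above background on every array. Among 52 other imprinted genes, 41 could be compared in females and 44 in males. In females 8 were more than 1.5-fold higher in M and 5 lower, with a median of -0.12, and in males 10 were higher and 11 lower, with a median of 0.02. Phlda2, a maternally expressed restrainer of placental growth in the same cluster as Cdkn1c, was at -0.06 in MF, -3.18 in CF, -0.76 in MM and -0.13 in CM. It was low on the control female alone, as Igf2 was, and differed by 3.11 (8.66-fold) in females and -0.63 in males. Blcap, from another imprinted cluster, exceeded CF 4.65-fold in MF and was level in males (-0.04). Slc22a3, next to Igf2r, was lower in both sexes (2.67-fold in females, at least 2.90-fold in males). By their brighter probes Peg10 was at least 3.36-fold higher and Mkrn3 at least 5.27-fold lower in MM than in CM. The other probe of Peg10 gave 1.27 in males, and that of Mkrn3 gave 0.16, so no direction held over Mkrn3. Imprinted genes outside the 10 thus differed in both directions in each sex.

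**Figure D5:**
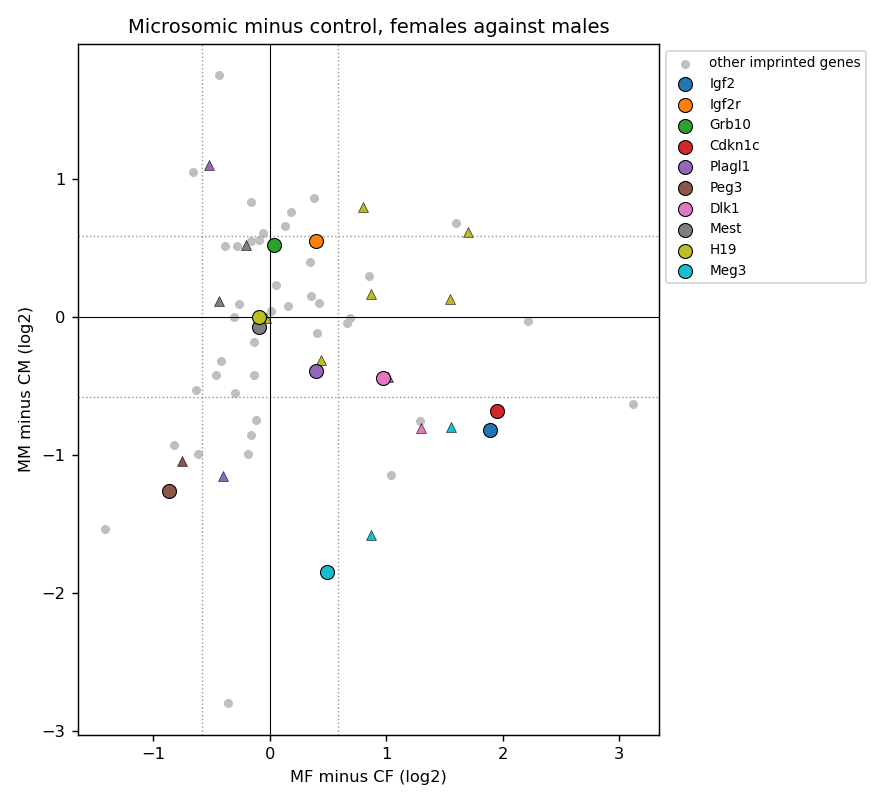
Difference between microsomic and control arrays (log2) in males (MM minus CM) against females (MF minus CF) for the 25 probes of the 10 genes (circles, the brightest probe of each gene; triangles, its other probes) and, in grey, for the other imprinted genes measured in both sexes, with a bound in place of the difference where 1 array was not well above background. Dotted lines mark 1.5-fold. Igf2, Cdkn1c and Dlk1 lie at the lower right, Peg3 with both its probes at the lower left, and the probes of H19 and Plagl1 are scattered.

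The IGF system was mixed. Of 16 ligands, receptors, carriers and signalling partners, 4 were more than 1.5-fold higher and 1 lower in M females, and 2 higher and 4 lower in M males, with medians of 0.04 and -0.17. Igf1, the postnatal growth factor, gave -0.40 in females and 0.52 in males by its brightest probe, but its 5 probes ranged from -0.63 to 0.67 and from -1.10 to 0.95, so that no direction held over the gene. Its receptor Igf1r gave 0.07 and 0.49. Igfbp7, a secreted binding protein of low affinity for IGFs, was 2.89-fold higher in M females and 5.90-fold higher in M males. Pappa, the protease that frees IGFs from Igfbp4, was 12.1-fold lower in M females and 2.08-fold lower in M males. It was highest on CF, the array with the heart signal, at -0.67 against -4.27 to -3.85 on the others. Irs2, which couples the insulin receptor to its signalling, gave 1.76 in females and -0.46 in males.

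A further list held 8 RNA-binding and growth partners of Igf2 and H19. Of these, the Igf2 mRNA-binding protein Igf2bp2 was 2.71-fold higher in M females and 1.93-fold higher in M males by its brighter probe. Its other probe gave 0.24 and 0.55, both under 1.5-fold. Its relatives gave 0.53 and 0.53 (Igf2bp1) and 0.22 and 0.72 (Igf2bp3). Lin28b, which blocks let-7 maturation, was level in both sexes (-0.08 and -0.08), and Hmga2, a chromatin protein of growing fetal cells, was lower in both by its brighter probe (1.62-fold and 1.63-fold), whereas its dimmer probe gave 1.16 and 1.28. In all, 2 of 8 were higher and 1 lower in females, and 3 were higher and 2 lower in males. A list of fetal liver genes silenced after birth also held repressors that act on them. Afp gave 0.76 in females and -0.79 in males. Gpc3, a cell surface proteoglycan, gave 0.94 and -0.31 by its brighter probe (-0.42 and 2.46 by a dim one). Zbtb20, a repressor of Afp, gave 0.85 and -0.26. This list, which also holds H19, thus pools repressors with their targets. In females 3 of 5 were higher (Afp, Gpc3 and the repressor Zbtb20), and in males 1 of 5 was lower (Afp). Zhx2, a repressor of Afp and H19, was well above background on MF and MM alone, at most -4.07. Of the G1 cyclins and kinase inhibitors, the partners and relatives of Cdkn1c, 6 of 13 were higher in MF than in CF and 0 lower, with a median of 0.58 (19.9% and 21.1% of all genes), and 1 of 12 was higher in MM than in CM (17.7% of all genes; Cdk6, higher by 0.77 in females and 1.26 in males).

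The proteins that keep imprints through the waves of demethylation were compared next. Zfp57 binds methylated copies of the hexamer TGCCGC at imprinting control regions and brings in Trim28, which recruits silencing enzymes. Trim28 was at 4.201 in MF, 2.61 in CF, 2.64 in MM and 2.72 in CM, 3.02-fold higher in females and level in males by its brightest probe. Its second, dim probe was well above background on MF and CM alone, so that it was higher in M in females and lower in M in males. The signal of that probe differed by 4.17 in females and -6.77 in males, with no bound applied, against -0.08 in males by the brightest. The probes of Trim28 thus disagreed widely in males. Zfp57 was well above background on CM alone, and Zfp568 was at least 2.81-fold lower in MF than in CF and level in males (0.06). Of the 15 genes of this list, 3 of 13 measured were higher and 1 lower in females, and 0 of 14 higher and 2 lower in males.

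The hexamer was looked for on both strands (TGCCGC or GCGGCA) in the 250 bases before each RefSeq transcript start of the members (GRCm38.p6), a different build from that of the probes. The table held 15 starts of 8 of the 10 genes, and none for H19 and Cdkn1c. The hexamer occurred in 4 of the 15 windows, in 3 genes, and in 8.68% of the 32851 windows of all genes. A pair of the 4 windows overlap at Mest and share their copies. The member windows held a median of 10 CG dinucleotides and all windows a median of 6. The hexamer itself contains a CG, so these shares are not matched and enrichment was not tested. The windows of these 3 genes are printed 5′ to 3′ with the hexamer in capitals, for Mest at 1 of a pair of starts that overlap. They are shown because Meg3, Plagl1 and Mest differ in what their probes did, the first lower in M males, the second with probes in both directions and the third level.
Meg3, chr12:109540746-109540995, plus strand: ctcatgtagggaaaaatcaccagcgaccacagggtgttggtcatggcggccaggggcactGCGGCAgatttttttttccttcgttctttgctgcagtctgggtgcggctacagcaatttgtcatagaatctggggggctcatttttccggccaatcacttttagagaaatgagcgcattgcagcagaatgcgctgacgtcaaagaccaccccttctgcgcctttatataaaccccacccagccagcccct
Plagl1, chr10:13090582-13090831, plus strand: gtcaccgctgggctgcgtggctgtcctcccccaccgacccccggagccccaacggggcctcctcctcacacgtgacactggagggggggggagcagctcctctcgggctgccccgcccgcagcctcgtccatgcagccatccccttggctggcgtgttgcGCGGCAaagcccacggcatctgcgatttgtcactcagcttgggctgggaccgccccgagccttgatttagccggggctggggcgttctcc
Mest, chr6:30737800-30738049, plus strand: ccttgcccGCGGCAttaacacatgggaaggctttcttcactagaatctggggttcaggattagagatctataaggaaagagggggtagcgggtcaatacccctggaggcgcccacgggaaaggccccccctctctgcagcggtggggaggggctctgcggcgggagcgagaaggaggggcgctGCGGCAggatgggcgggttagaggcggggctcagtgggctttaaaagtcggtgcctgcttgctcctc

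Mest held 2 copies, which 0.874% of all windows did (2 or more), and Meg3 and Plagl1 held 1 each. Igf2, Dlk1, Peg3, Igf2r and Grb10 held none in these windows. The windows were not chosen as imprinting control regions, and methylation was not measured.

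By likeness of profile over the 4 arrays, taken as the root mean square distance after removal of the mean of each gene, the nearest gene to Igf2 with a symbol was Golm1, a Golgi membrane protein (distance 0.21 on the log2 scale, rank 3 of 19302), behind an unnamed transcript and an intergenic noncoding RNA. For Meg3 the nearest were the predicted gene Gm13011 (0.12) and an intergenic noncoding RNA on chromosome 3 (0.13). Dlk1, of the same domain, ranked 505 for Meg3 (0.63), and Cdkn1c ranked 11045 for Igf2 (1.15). With 4 arrays such distances only describe these samples.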

How the data were processed

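Liver RNA of 4 groups was measured on 1-colour Agilent 8x60K mouse expression arrays, 1 array per group. The authors scanned the arrays with Agilent Feature Extraction 10.7.3.1, and the deposited processed signal is a linear intensity, background-subtracted and detrended by that software, with no normalization between arrays. Their series value table held the same numbers in all 62976 spots. No other values were used, and depth is not a property of arrays, whose number limits the precision here.

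Here, each array was scaled on the log2 scale to the 75th percentile of its non-control spots. A spot flagged as an outlier by the software on any array was dropped throughout (1754 spots), and repeated spots were averaged. The brightest probe stood for a gene, and all member probes are reported. A gene was called past 1.5-fold when either array of the pair was well above background. If its partner was not, the difference was set against the higher of the lowest signal well above background there and the signal of the probe itself, and is given as at least that size. Pairs of arrays carry no p-value. limma 3.58.1 (R 4.3.3) was fitted with condition and sex as terms over 19303 genes well above background on all arrays, with Benjamini-Hochberg adjustment at 0.05, and was tested on simulated data. Gene lists were described by counts and medians beside those of all genes, and lists other than the members under the scaling above only.

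All 10 members are named. From the other lists, genes past 1.5-fold the same way in both sexes or past 3-fold in 1 sex are named (at most 8 a list), with 12 genes named whatever their values, and for Igf2 and Meg3 the 3 nearest profiles. Some items that this rule takes in are not reported here. Ins2, Igf2as, Zbtb20, Usp29 and Zfp264 were named in addition, as neighbours or list members, with their values known. The members, lists and tests were chosen with earlier results of these data known. Positions of probes come from the array annotation (mm9), whose exons and UTRs were not used here. Promoter windows are from RefSeq (GRCm38.p6).

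Alternatives were median centring, quantile normalization, normexp (offset 50) with quantile normalization, no scaling, removal of a GC or a surface trend, flagged spots kept, the mean over probes, other filters on dim probes, a 2-fold threshold, the value table, and for limma an intensity trend, no term for sex and the threshold of the methods.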

Additional observations from a re-analysis of the deposited data

Results flagged for a closer look

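Igf2 and Cdkn1c passed 1.5-fold in opposite directions in the sexes. The female difference (MF minus CF) exceeded the male difference (MM minus CM) by 2.72 for Igf2 and by 2.63 for Cdkn1c on the log2 scale. Each of the 4 values behind such a gap comes from 1 array, and the difference between the sexes was not tested. For Igf2 the gap rests on the control female, the lowest array (3.24), and for Cdkn1c on the microsomic female, the highest (4.11). CF is the array with the heart genes and MF the array with the most intestinal signal. MF also had the most spots flagged as non-uniform, 916 against 130 to 182 on the other arrays. It had 22 saturated spots, against 0 or 1 on the others. The Cdkn1c spot was neither flagged nor saturated. Both M arrays were brighter before scaling, with a 75th percentile of 892.8 in MF and 925.0 in MM against 675.9 in CF and 627.6 in CM.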

How the results depend on the processing

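The number of members past 1.5-fold was 4 in each sex and stayed between 4 and 6 in females and between 3 and 6 in males under every alternative except the 2-fold threshold, which left 2 in females (Igf2 and Cdkn1c) and 2 in males (Meg3 and Peg3). Of 182 differences of single members under an alternative, 141 moved by less than the SD of a spot difference and 41 by more. Many of these outcomes were fixed by the setting, so the count does not measure stability. The value table repeats the signal, kept flags touch only Mest, and the mean over probes cannot move a gene of 1 probe. Median centring shifts all members in a sex by the same amount, under that SD, and no scaling by the same amount above it. None of the 8 differences reported as past 1.5-fold changed sign. The female difference of H19, reported as -0.09, passed 1.5-fold downwards with quantile normalization (-0.74) and upwards with the mean over probes (0.74) and by the unsaturated probe (0.87). Igf2 and Cdkn1c passed it in opposite directions under most settings, but Cdkn1c did not with median centring or surface correction, and neither did without scaling. Without scaling the median of all genes moved from -0.08 to 0.32 in females and from -0.03 to 0.53 in males, and with median centring to 0.01 and 0.21. limma called 0 genes under every fit apart from the unscaled one (10 genes, none of them a member), and the threshold of the methods (unadjusted p under 0.01 and 1.5-fold) gave 163 genes, no member among them. Taking H19 by its brightest unsaturated probe, chosen after the data were seen, gave 5 members in females and 4 in males. No paired analysis was possible because each group has 1 array and the labels give no replicate numbers, and for the same reason no array could be left out.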
